A study of Homo sapiens with 12 samples.

Results

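The ATP-binding cassette (ABC) family was read from the count tables as all gene symbols made of ABC, a subfamily letter from A to G and a number. Of the 55765 symbols listed for each library, 46 matched, and 30 of these averaged 10 normalized counts or more in at least 1 of 4 groups. A normalized count here is a read count scaled by TMM, a method that sets libraries to a common depth. The 30 were 9 of 12 members of subfamily A, 5 of 9 of B, 7 of 12 of C, 3 of 4 of D, the 1 member of E, all 3 of F and 2 of 5 of G. Family genes that carry other symbols (TAP1, TAP2 and CFTR) were not members and served as context.

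ABC proteins bind and hydrolyse ATP, and most of them use it to move a substrate across a membrane. Subfamily A moves mainly lipids. Subfamily B holds the drug pump ABCB1 and transporters of mitochondria and other organelles. Subfamily C holds the multidrug resistance proteins, which export glutathione and conjugates of glutathione, glucuronate and sulfate. Subfamily D serves peroxisomes and lysosomes, subfamily G moves sterols and drugs, and subfamilies E and F have no membrane domain and act in translation. The export of glutathione conjugates draws on cysteine, since glutathione is built from it, and NRF2 is known as a transcription factor for enzymes of glutathione synthesis and conjugation and, in other cells, for ABCC2 and ABCC3.

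RNA was sequenced from Hs 578T cells, a line from a triple-negative breast tumor of the mesenchymal stem-like subtype. All cells had been transduced with a lentiviral vector, for GFP as the control or for full-length NRF2. The methods name no step that clones the cells or removes their own NFE2L2 gene. Both kinds of cells were then washed with PBS and kept for 8 h. Their medium had 0.2 mM methionine, 2 mM glutamine and 10% fetal bovine serum, and either held 0.8 mM cystine (Cyss) or had none added. Each of the 4 groups, named here GFP with Cyss, GFP without Cyss, NRF2 with Cyss and NRF2 without Cyss, had 3 libraries. Nothing in the sample labels says that the 3 came from separate cultures, so p-values measure the spread between these libraries, which may be technical.

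Libraries held 27250993 to 44596870 reads on genes, of which ABC members took 0.127 to 0.136%. NFE2L2, the gene of NRF2, read 3662 to 4682 normalized counts in the 6 GFP libraries and 6567 to 8448 in the 6 NRF2 libraries, with reads from the gene and the vector not told apart. The labels call the line epithelial. EPCAM did not exceed 1.02 normalized counts, CLDN7 2.64, KRT19 3.07, CLDN3 3.28 or CDH1 13.8 in any library. KRT8 was at 150 to 235, KRT18 at 769 to 1469 and VIM at 142216 to 169050. ERBB2 was at 1157 to 1380, ESR1 at 6.97 to 13.1 and PGR at 0 to 25.5, with PGR means of 4.71 and 1.06 in the GFP groups with and without Cyss and 20.7 and 17.3 in the NRF2 groups. Of the immune markers, CD3E had no reads, PTPRC was at 18.8 to 53.4 and CD68 at 8.01 to 19.8. The transporters of bile salts and sterols in liver, ABCB11, ABCG5 and ABCG8, did not exceed 7.28 in any library. Replicate 3 of GFP without Cyss stood apart from its group on the first principal component of all genes, at 3.73 against -12 and -9.07, on the side of NRF2 without Cyss at 27.1 to 30.2, and values without it are given beside several of the results.

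The levels of the family spanned a wide range. Per kilobase of exon, the highest was ABCF1, a ribosome-associated protein that takes part in the initiation of translation, with 1695 normalized counts per kb over all 12 libraries. ABCF2, a member of the same subfamily, followed at 1034 and ABCE1, which splits ribosomes after termination, at 899. The library ranges of ABCF1 (1569 to 1866) and ABCF2 (958 to 1146) did not overlap, while those of ABCF2 and ABCE1 (810 to 1020) did. ABCF3 was at 530 and ABCD3, which brings branched fatty acids and bile acid precursors into peroxisomes, at 496, again with overlapping ranges. The exporters ABCC5 (371), ABCC1 (251), ABCC10 (202) and ABCC4 (187) led the transporters of the plasma membrane. ABCC3 (26.0) and ABCC2 (10.9), the same kind of exporter, were lower per kb. The lowest of the 30 was ABCA6, of a lipid transporter cluster, at 0.741.

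**Figure D1:**
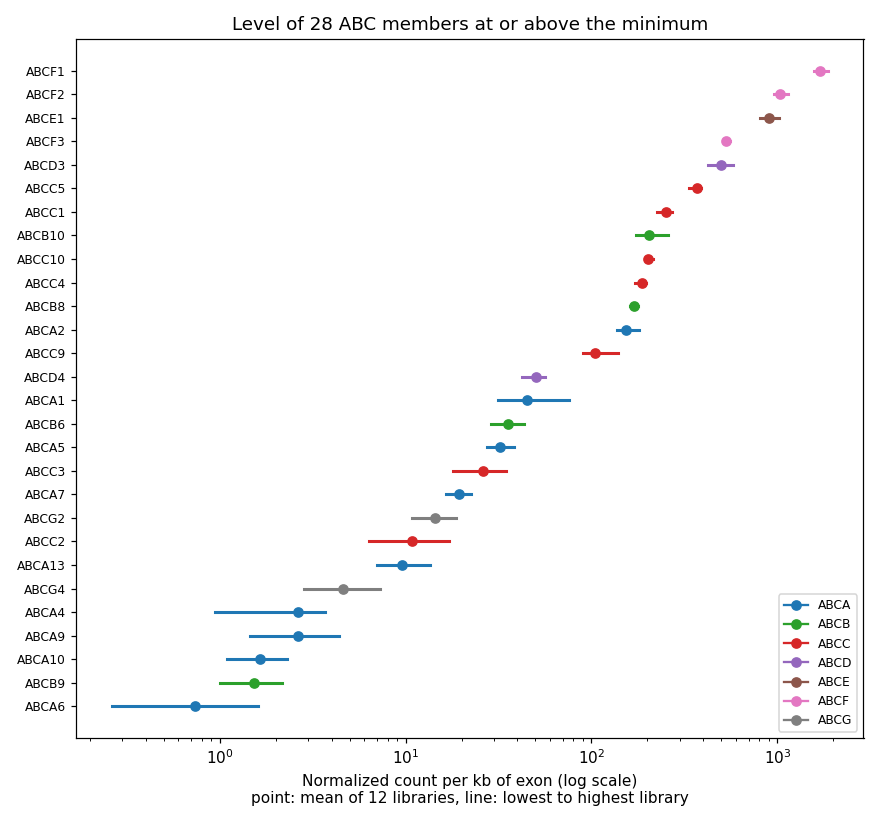
Levels of 28 ABC members, as normalized counts per kb of exon on a log axis, ordered from highest to lowest and coloured by subfamily. Points are means of 12 libraries and lines run from the lowest to the highest library; ABCF1, at 1695, is at the top and ABCA6, at 0.741, at the bottom.

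Of the 16 members under the minimum, ABCC8, a subunit of a potassium channel, had no read in any library, where a count of 0 allows up to 3 reads per library, and the sterol exporter ABCG1 had 1 read over all 12. ABCB1, the P-glycoprotein drug pump, was the nearest below the minimum. It read 3.56, 8.98 and 4.39 normalized counts in GFP with Cyss, 5.03, 5.76 and 6.58 in GFP without Cyss, 8.49, 10.5 and 9.84 in NRF2 with Cyss and 6.26, 9.21 and 13.9 in NRF2 without Cyss, with 4 to 14 reads behind each value. The NRF2 and GFP ranges overlapped in both media. With Cyss, where it was tested, the log2FC of NRF2 against GFP cells was 0.73 (SE 0.408, adjusted p = 0.347). It entered that test only through the NRF2 group, so the filter set the sign. Scaled over the libraries compared, the means were 10.1 in NRF2 and 5.91 in GFP cells. ABCA12 (highest group mean 8.56), ABCA3 (7.48) and ABCC6 (7.46) came next, and ABCA10 (16.4) and ABCA6 (16.6) were the nearest above. At this depth changes in these 16 were not detectable.

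The first question was whether exogenous NRF2 changed the exporters of conjugates. From the fixed list of 9 (ABCC1 to ABCC6 and ABCC10 to ABCC12), 6 reached the minimum. In the tests, a gene was called where the adjusted p (edgeR quasi-likelihood test, Benjamini-Hochberg over all genes) was under 0.1 and the log2 fold change (log2FC) above 0.32 in size. With Cyss, ABCC2 and ABCC3 were called higher in NRF2 than in GFP cells and none of the 6 lower. Over all genes, 1.36% were called higher and 0.201% lower. Without Cyss, ABCC3 alone was called among the exporters, against 5.98% higher and 4.09% lower over all genes. The median log2FC of the 6 was 0.12 with Cyss and 0.08 without, beside -0.004 and -0.016 over all genes tested.

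ABCC3, an exporter of glucuronate and glutathione conjugates on the basolateral face of epithelial cells, read 220, 226 and 192 normalized counts in GFP with Cyss, 175, 183 and 173 in GFP without Cyss, 334, 297 and 331 in NRF2 with Cyss and 300, 277 and 286 in NRF2 without Cyss. All 6 NRF2 libraries lay above all 6 GFP libraries. In bulk RNA, a change in each cell and a change in the share of cells that express a gene cannot be told apart. The log2FC of NRF2 against GFP cells was 0.60 with Cyss (SE 0.0843, adjusted p = 0.000602) and 0.70 without (SE 0.0884, adjusted p = 0.000466). Both calls held when any 1 library was left out, with log2FC of 0.53 to 0.65 and 0.67 to 0.73. Deprivation of Cyss gave log2FC of -0.26 in GFP cells (SE 0.0904, adjusted p = 0.143) and -0.15 in NRF2 cells (SE 0.0827, adjusted p = 0.216), and the difference between these responses was 0.11 (SE 0.119, adjusted p = 0.606). On GRCh37, the build of the counts, ABCC3 spans chr17:48712138-48769614 on the plus strand.

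ABCC2, which exports glutathione conjugates across the apical membrane, was called higher in NRF2 than in GFP cells with Cyss and not without. It read 95.3, 80.1 and 87.9 normalized counts in GFP with Cyss, 66.4, 81.9 and 54.8 in GFP without Cyss, 126, 135 and 105 in NRF2 with Cyss and 73.0, 66.5 and 49.8 in NRF2 without Cyss. The 3 libraries of NRF2 with Cyss were the highest of the 12, and the groups without Cyss overlapped each other. NRF2 against GFP cells gave 0.49 with Cyss (SE 0.124, adjusted p = 0.0383) and -0.10 without (SE 0.189, adjusted p = 0.751). The first of these calls was lost, at adjusted p of 0.116 to 0.158, without NRF2 with Cyss replicate 1, NRF2 with Cyss replicate 2 or GFP with Cyss replicate 3.

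Deprivation brought ABCC2 down in NRF2 cells, by 0.95 on the log2 scale (SE 0.162, adjusted p = 0.000654), to 0.518 of its level. It was called there without any 1 library, at log2FC of -1.07 to -0.79. In GFP cells the log2FC was -0.37 (SE 0.151, adjusted p = 0.218). The difference between the responses was -0.58 (SE 0.232) and did not pass the test (adjusted p = 0.123), so the responses of ABCC2 in NRF2 and GFP cells are not shown to differ. Without GFP without Cyss replicate 3, that difference was -0.70 with an adjusted p of 0.0635.

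The start of ABCC2 is printed since this was the exporter with the largest change on deprivation. The sequence runs from 250 bases before to 50 bases from the transcription start on, 5′ to 3′ on the gene's strand, from RefSeq on GRCh38.p14 at chr10:99782390-99782689, plus strand. Capitals mark the 50 bases from the start on. It holds 45% G and C and neither of the motifs searched here, the core of the antioxidant response element that NRF2 binds with small MAF proteins (TGACNNNGC) and the core of the element bound by C/EBP and ATF proteins in amino acid shortage (TGATGNAA), on either strand.
ABCC2: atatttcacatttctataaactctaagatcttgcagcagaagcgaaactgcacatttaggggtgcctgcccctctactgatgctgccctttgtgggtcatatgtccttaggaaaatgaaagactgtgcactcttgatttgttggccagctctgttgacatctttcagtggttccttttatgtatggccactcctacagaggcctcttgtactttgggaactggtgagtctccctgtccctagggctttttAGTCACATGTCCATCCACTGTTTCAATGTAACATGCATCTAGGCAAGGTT

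The other exporters moved less. ABCC1, which exports glutathione, its conjugates and leukotriene C4, read 2165, 2083 and 2061 normalized counts in GFP with Cyss, 2186, 2020 and 1974 in GFP without Cyss, 2369, 2384 and 2308 in NRF2 with Cyss and 2351, 2187 and 2272 in NRF2 without Cyss. All 6 NRF2 libraries were above all 6 GFP libraries, yet the log2FC of 0.18 with Cyss (SE 0.0398, adjusted p = 0.0225) and 0.14 without (SE 0.0541, adjusted p = 0.0862) were under the fold threshold, so it was not called.

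ABCC4, an exporter of cyclic nucleotides, prostaglandins and conjugates, read 1687, 1683 and 1706 in GFP with Cyss and 1535, 1501 and 1481 in GFP without Cyss, without overlap. The log2FC of -0.16 (SE 0.0413, adjusted p = 0.0506) was under the fold threshold. In NRF2 cells ABCC4 read 1612, 1685 and 1674 with Cyss and 1586, 1634 and 1579 without, and these ranges overlapped (log2FC -0.05, adjusted p = 0.534). The difference between the responses was 0.12 (SE 0.0586, adjusted p = 0.229), so they are not shown to differ. ABCC5, which exports cyclic nucleotides and nucleotide analogs, ran from 3794 to 4435 over the 12 libraries and ABCC10, an exporter of glucuronate conjugates and taxanes, from 1566 to 1743. Their log2FC lay between -0.09 and 0.07 in the 4 comparisons, and none was called.

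**Figure D2:**
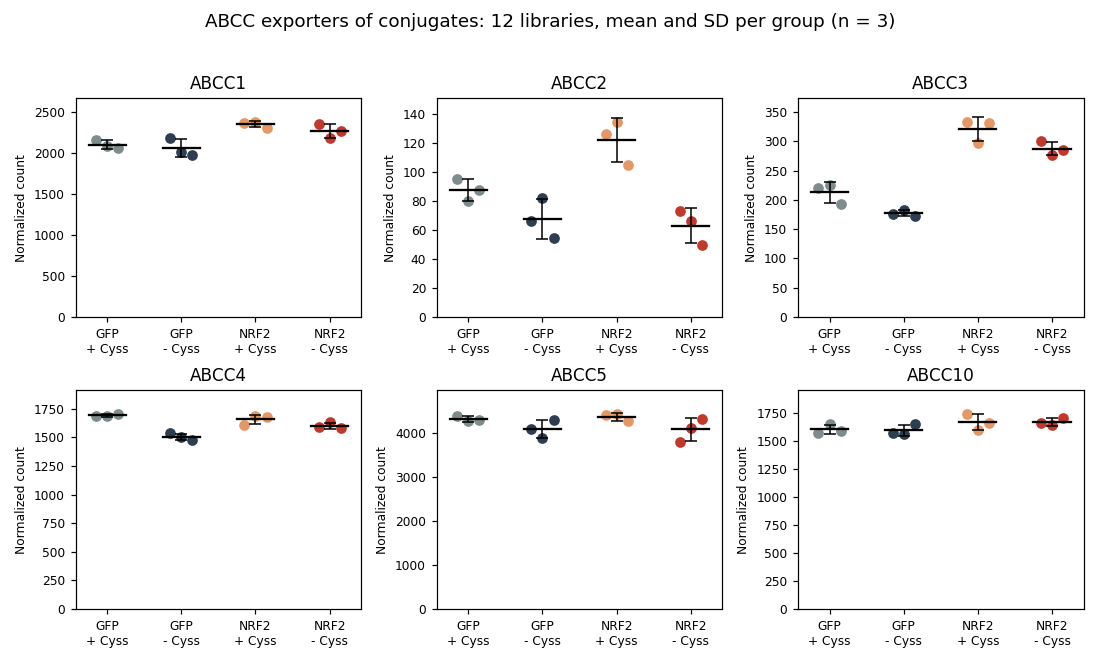
Normalized counts of the 6 ABCC exporters of conjugates in the 12 libraries, by group, with + Cyss and - Cyss for medium with and without cystine. Points are libraries, horizontal bars means and error bars SD (n = 3); ABCC3 is at 277 to 334 in the NRF2 libraries and at 173 to 226 in the GFP libraries, and ABCC2 is highest in NRF2 with Cyss, at 105 to 135.

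Among the exporters with an entry in the promoter table, ABCC4, ABCC10 and, under the minimum, ABCC11 held the core of the antioxidant response element. ABCC1 and ABCC3 had no entry, so their promoters were not searched. ABCC4 and ABCC10 are shown with 30 bases on each side, on the gene's strand with the match in capitals, to set a match beside members that were not called. The match of ABCC4 reads on the opposite strand, at positions -149 to -141 counted from the first transcribed base as 0, and lies at chr13:95301592-95301600 on GRCh38.p14. That of ABCC10 reads on the gene's strand, at positions -143 to -135, at chr6:43427398-43427406.
ABCC4: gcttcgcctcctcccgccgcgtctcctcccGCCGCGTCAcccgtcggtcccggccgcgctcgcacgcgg
ABCC10: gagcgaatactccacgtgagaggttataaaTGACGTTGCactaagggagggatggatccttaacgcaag

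Over the family, 35 members had 53 promoters in the table, and 12 of the 35 (34.3%) held this core, against 16.1% of 27305 genes. The 12 were ABCA2, ABCA3, ABCA5, ABCB6, ABCB9, ABCC4, ABCC10, ABCC11, ABCD4, ABCF1, ABCG2 and ABCG4. The core of the C/EBP and ATF element was found in 3 of 35 (8.57%) against 4.46% of all genes. Members with more listed promoters have more chances of a match. By promoter the shares were 22.6% of 53 against 13.3% of 35116 for the first and 5.66% against 3.62% for the second. A match describes letters in the window, not binding.

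Over the whole family, NRF2 against GFP cells with Cyss gave 3 members called higher, ABCC2, ABCC3 and ABCA9, and 0 lower among the 30 tested, which there included ABCB1 and not ABCA6. Of all 17449 genes tested, 1.36% were called higher and 0.201% lower. 7 members had an unadjusted p under 0.05, and 20 of 30 had a positive log2FC, with a median of 0.08 beside -0.004 over all genes. Ranges of the groups did not overlap for 9 members, against 25.4% of all genes. Without Cyss, 5 were called higher (ABCA1, ABCA9, ABCA13, ABCC3 and ABCC9) and 0 lower, against backgrounds of 5.98% and 4.09%. There 11 had an unadjusted p under 0.05, 21 of 30 were positive, and the median was 0.12 beside -0.016. Ranges did not overlap for 13 of 30, against 37.8% of all genes. ABCB1 with Cyss and ABCA6 without Cyss reached the minimum only in the NRF2 group, so the filter set their signs. The share of positive log2FC over all genes was not counted in either medium. DESeq2's Wald test called 0 members lower in both media, with 8 members with Cyss and 6 without that had no adjusted p and could not be called. These comparisons share no libraries with each other but share them with the comparisons of media.

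Subfamily A held 3 of the 5 calls without Cyss. All 9 of its members had a positive log2FC there, from 0.14 to 0.97 with a median of 0.43, and ABCA1, ABCA9 and ABCA13 were the called ones. ABCA6 reached the minimum there only in the NRF2 group (15.8 normalized counts, against 9.29 in the GFP group). The filter therefore set its sign, and the share of positive log2FC over all genes was not counted. With Cyss, 7 of 8 tested were positive, with a median of 0.23, and ABCA9 was called. ABCA2, a lipid transporter of lysosomes and endosomes, read 1581 to 1657 in the 6 GFP libraries and 1757 to 2064 in the 6 NRF2 libraries without overlap. Its log2FC of 0.25 (adjusted p = 0.0102) and 0.23 (adjusted p = 0.0163) were under the fold threshold. ABCA4, ABCA5, ABCA7 and ABCA10, of which ABCA4 clears retinoids from photoreceptors and ABCA7 handles phospholipids, were not called in any test. ABCA6, with 5 to 23 reads a library, had log2FC of 0.66 in GFP cells and 0.83 in NRF2 cells on deprivation (adjusted p = 0.415 and 0.136). In both of these tests it reached the minimum only in the group without Cyss, which set the sign.

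ABCA9, a lipid transporter gene of the 17q24 cluster, was low. It read 17.8, 13.5 and 21.1 normalized counts in GFP with Cyss, 21.1, 16.1 and 13.2 in GFP without Cyss, 27.9, 30.5 and 39.4 in NRF2 with Cyss and 25.0, 31.7 and 26.9 in NRF2 without Cyss. Every NRF2 library was above every GFP library. The log2FC was 0.93 with Cyss (SE 0.24, adjusted p = 0.0443) and 0.72 without (SE 0.249, adjusted p = 0.0608). With 12 to 36 reads behind each value, the call with Cyss was lost without NRF2 with Cyss replicate 3 (adjusted p = 0.215) or GFP with Cyss replicate 2 (0.104), and the call without Cyss without NRF2 without Cyss replicate 2 (0.175), GFP without Cyss replicate 2 (0.164) or GFP without Cyss replicate 3 (0.166).

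**Figure D3:**
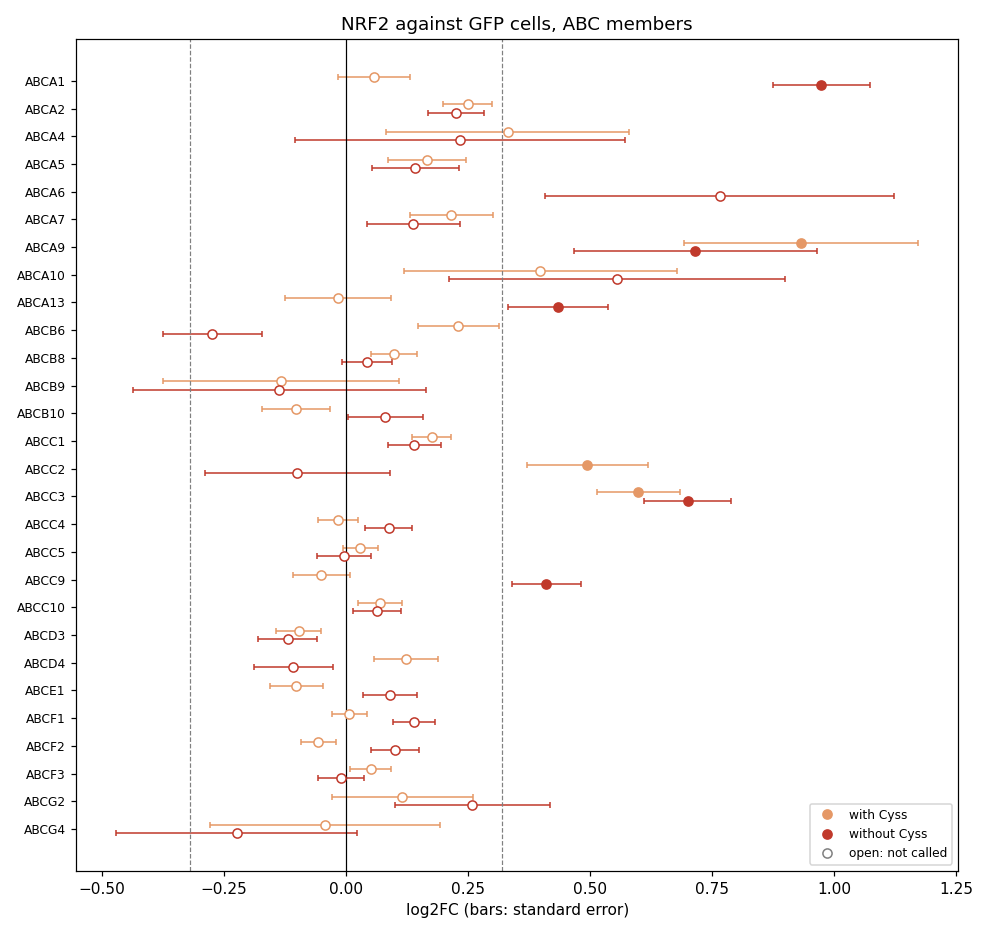
log2FC of NRF2 against GFP cells for 28 members, with Cyss (orange) and without (red), with bars of 1 standard error. Filled points were called, and dashed lines mark 0.32 in either direction; ABCC3 and ABCA9 were called in both media, ABCC2 with Cyss, and ABCA1, ABCA13 and ABCC9 without.

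The next question was how the family responded to 8 h without Cyss. In GFP cells, 0 of 30 members were called higher and 0 lower, against 1.57% and 0.533% of 17452 genes. By edgeR 6 members had an unadjusted p under 0.05, and DESeq2's Wald test called 0, with 8 members that had no adjusted p and could not be called. All 6 exporters of conjugates had a log2FC below 0, from -0.37 to -0.002 with a median of -0.12, beside 0.002 over all genes. In NRF2 cells 5 of the 6 were below 0, with a median of -0.07 beside -0.012 over all genes. Over the family in GFP cells, 19 of 30 were negative. Ranges there did not overlap for 6 of 30, against 24.6% of all genes. ABCB10, a transporter of the inner mitochondrial membrane, read 1104, 906 and 891 with Cyss and 812, 762 and 793 without. These ranges did not overlap, and the log2FC of -0.29 (SE 0.0767, adjusted p = 0.0646) was under the fold threshold. The tables also list a pseudogene copy, ABCB10P1, which could take some of its reads.

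In NRF2 cells, deprivation gave 3 members called higher (ABCA1, ABCA13 and ABCC9) and 2 lower (ABCB6 and ABCC2), against 6.81% and 5.14% of 17266 genes. The share of members called was near that background. The median log2FC of the 30 was -0.06, beside -0.012 over all genes, and 21 of 30 were negative. Ranges without overlap were found for 12 of 30 members, against 37.7% of all genes.

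ABCA1, which hands cholesterol and phospholipids to apolipoprotein A1, showed the largest rise. It read 413, 379 and 356 normalized counts in GFP with Cyss, 403, 371 and 517 in GFP without Cyss, 370, 419 and 393 in NRF2 with Cyss and 813, 864 and 860 in NRF2 without Cyss. The last group stood above the other 9 libraries, whose highest was replicate 3 of GFP without Cyss. Deprivation raised ABCA1 in NRF2 cells 2.15-fold (log2FC 1.10, SE 0.0664, adjusted p = 2.41e-08), while in GFP cells the log2FC was 0.17 (SE 0.107, adjusted p = 0.413).

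The responses of ABCA1 differed between NRF2 and GFP cells by 0.93 on the log2 scale (interaction term over 12 libraries, SE 0.133, adjusted p = 0.000671). Without GFP without Cyss replicate 3 the difference was 1.08 and the log2FC in GFP cells 0.02, and over the 12 fits that each left out 1 library it ran from 0.83 to 1.08 and was called in all 12. NRF2 against GFP cells gave 0.06 with Cyss (adjusted p = 0.719) and 0.97 without (SE 0.0992, adjusted p = 0.000224).

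ABCA1 spans chr9:107543287-107690436 on the minus strand of GRCh37. Its start is printed as the member with the largest change. It comes from RefSeq on GRCh38.p14, chr9:104928106-104928405, minus strand, written on the gene's strand with the 50 bases from the start on in capitals. It holds 62.7% G and C and, like that of ABCC2, neither motif in this window.
ABCA1: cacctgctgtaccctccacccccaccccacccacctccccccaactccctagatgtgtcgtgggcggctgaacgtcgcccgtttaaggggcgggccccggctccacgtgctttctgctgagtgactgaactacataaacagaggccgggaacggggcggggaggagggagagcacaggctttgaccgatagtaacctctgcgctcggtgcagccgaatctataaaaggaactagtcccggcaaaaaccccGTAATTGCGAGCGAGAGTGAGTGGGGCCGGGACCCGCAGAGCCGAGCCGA

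ABCA1 is a textbook target of the sterol receptor LXR, so a list of 12 genes of that pathway (the receptors, their partners and other targets) was read beside it. In NRF2 cells, 0 of the 11 tested were called higher on deprivation and MYLIP and RXRA lower by edgeR, against 6.81% and 5.14% of all genes, and 3 had an unadjusted p under 0.05. MYLIP, the ubiquitin ligase that LXR induces against the LDL receptor, fell by 0.81 on the log2 scale (SE 0.102, adjusted p = 3.97e-05). SREBF1, another LXR target, had a log2FC of -0.20 (adjusted p = 0.0523) in NRF2 cells and 0.24 (adjusted p = 0.038) in GFP cells, under the fold threshold in both, and these responses differed by -0.44 (adjusted p = 0.00865). That of MYLIP differed by -0.65 (adjusted p = 0.00589). RXRA had a log2FC of -0.44 (adjusted p = 0.000546) in NRF2 cells and -0.27 (adjusted p = 0.0391) in GFP cells, there under the fold threshold. Its responses are not shown to differ (-0.18, adjusted p = 0.291). In NRF2 against GFP cells with Cyss, SREBF1 alone of the 11 was called, higher (0.42, adjusted p = 0.000434). The shares over all genes were 1.36% higher and 0.201% lower. Without Cyss, MYLIP (-0.71, adjusted p = 0.00173) and APOE (-0.56, adjusted p = 0.0493) were called lower and 0 of the 11 higher. All genes gave 4.09% lower and 5.98% higher there. Whether LXR acts on ABCA1 in these cells was not tested.

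ABCA13, the longest member of subfamily A, rose as well. It read 161, 134 and 150 normalized counts in GFP with Cyss, 181, 167 and 213 in GFP without Cyss, 165, 134 and 138 in NRF2 with Cyss and 248, 252 and 259 in NRF2 without Cyss. In both cell types the ranges with and without Cyss did not overlap. The log2FC was 0.81 in NRF2 cells (SE 0.101, adjusted p = 3.71e-05) and 0.34 in GFP cells (SE 0.111), where the adjusted p of 0.12 missed the threshold. NRF2 against GFP cells gave -0.02 with Cyss (adjusted p = 0.957) and 0.43 without (adjusted p = 0.012).

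The difference between the responses of ABCA13, 0.46 (SE 0.15, adjusted p = 0.0616), was called in 5 of the 12 fits that left out 1 library. Without GFP without Cyss replicate 3 it was 0.57, and the log2FC in GFP cells 0.24. It was lost, at 0.39 to 0.47, without any 1 of GFP with Cyss replicates 1 and 3, GFP without Cyss replicates 1 and 2, and NRF2 with Cyss replicates 2 and 3 or NRF2 without Cyss replicate 2. Of the 9 members called in any test, 8 had a promoter in the table, and among these ABCA13 alone held the core TGATGNAA, on the opposite strand at positions -93 to -86 from the start, at chr7:48171365-48171372 on GRCh38.p14. It is shown with 30 bases on each side.
ABCA13: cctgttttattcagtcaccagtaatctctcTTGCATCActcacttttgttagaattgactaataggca

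ABCC9, the sulfonylurea receptor SUR2 that regulates ATP-sensitive potassium channels, was the only member of subfamily C outside the exporters above the minimum. It read 1881, 1612 and 1624 normalized counts in GFP with Cyss, 1639, 1583 and 1858 in GFP without Cyss, 1743, 1570 and 1584 in NRF2 with Cyss and 2138, 2443 and 2174 in NRF2 without Cyss. The last group was above the other 9 libraries, which overlapped each other. Deprivation gave 0.47 in NRF2 cells (SE 0.0616, adjusted p = 6.17e-05) and -0.005 in GFP cells (adjusted p = 0.983).

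The responses of ABCC9 differed by 0.47 (SE 0.101, adjusted p = 0.00725), and this was called in all 12 fits that left out 1 library, at 0.40 to 0.55, the latter without GFP without Cyss replicate 3. NRF2 against GFP cells without Cyss gave 0.41 (SE 0.0705, adjusted p = 0.00233), and with Cyss -0.05 (adjusted p = 0.691).

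ABCB6, a porphyrin transporter of mitochondria and endolysosomes, went the other way. It read 184, 192 and 180 normalized counts in GFP with Cyss, 180, 204 and 179 in GFP without Cyss, 206, 216 and 225 in NRF2 with Cyss and 151, 150 and 163 in NRF2 without Cyss. NRF2 with Cyss was the highest group and NRF2 without Cyss the lowest, with no overlap with any other group. The fall in NRF2 cells was 0.48 on the log2 scale (log2FC -0.48, SE 0.0939, adjusted p = 0.00209), against 0.02 in GFP cells (adjusted p = 0.948).

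The responses of ABCB6 differed by -0.49 (SE 0.12, adjusted p = 0.0165), called in all 12 fits that left out 1 library. NRF2 against GFP cells gave 0.23 with Cyss (adjusted p = 0.144) and -0.27 without (adjusted p = 0.0752), neither of them called. Reads were counted without strand and on an annotation whose version was not stated. In GENCODE 44, a same-strand readthrough gene shares 54.6% of the exon bases of ABCB6, so its level is uncertain. ABCB6 spans chr2:220074494-220083716 on the minus strand of GRCh37. Its start held the core of the antioxidant response element on the gene's strand, at positions -152 to -144 from the start, at chr2:219219102-219219110 on GRCh38.p14, shown in capitals with 30 bases on each side.
ABCB6: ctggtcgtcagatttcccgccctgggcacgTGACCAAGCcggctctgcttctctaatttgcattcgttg

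**Figure D4:**
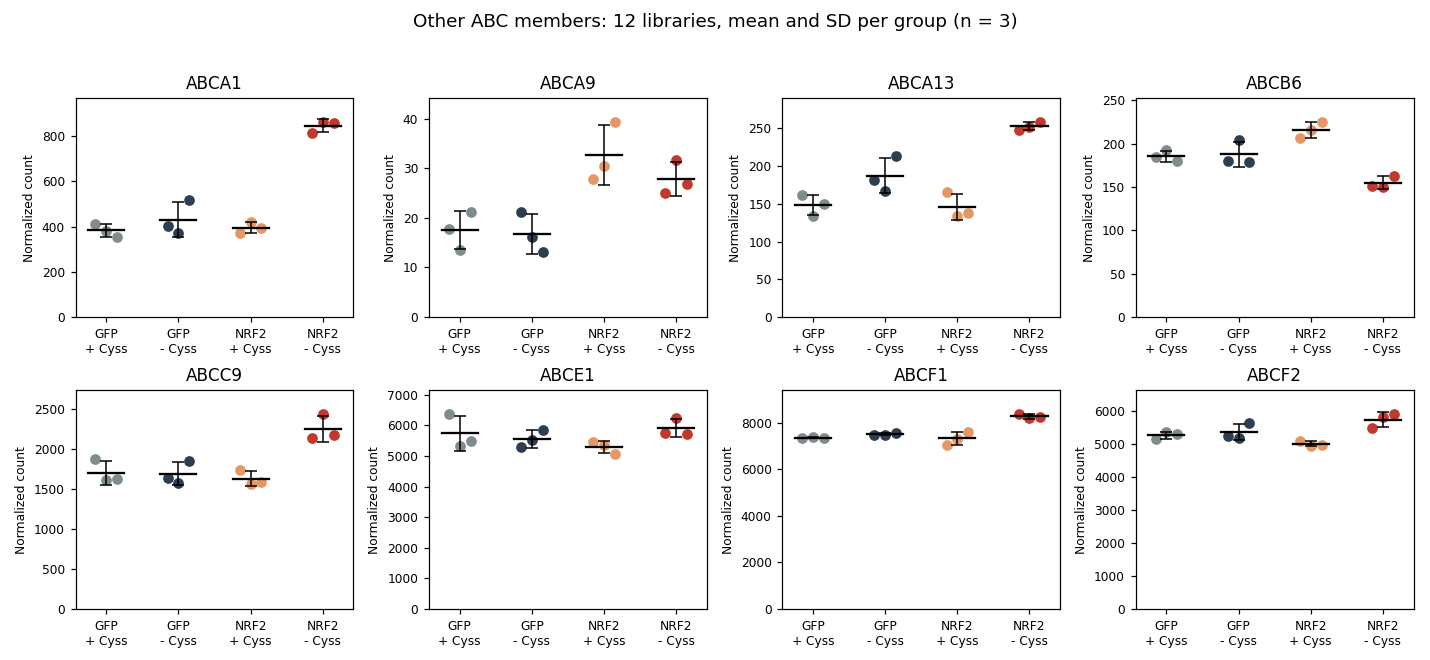
Normalized counts of 8 members outside the exporters in the 12 libraries, by group. Points are libraries, horizontal bars means and error bars SD (n = 3); ABCA1, ABCA13 and ABCC9 are highest and ABCB6 lowest in NRF2 without Cyss, and 1 point of GFP without Cyss, replicate 3, lies above its group for ABCA1 at 517.

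Of the other members of subfamilies B and D, ABCB8 and ABCB9, of mitochondria and lysosomes, had log2FC between -0.14 and 0.10 in the 4 comparisons and were not called. In GENCODE 44, 24.6% of the exon bases of ABCB9 lie under genes of the other strand. ABCD3 and ABCD4, the second of which takes part in the export of vitamin B12 from lysosomes, also had no call, with log2FC of -0.16 to 0.12.

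In subfamilies E and F the changes were small against high counts. ABCF1 read 7349, 7382 and 7353 normalized counts in GFP with Cyss, 7493, 7481 and 7583 in GFP without Cyss, 7054, 7324 and 7607 in NRF2 with Cyss and 8391, 8207 and 8240 in NRF2 without Cyss. NRF2 without Cyss was the highest group without overlap. Deprivation gave 0.18 in NRF2 cells (SE 0.0449, adjusted p = 0.0101), under the fold threshold, and 0.04 in GFP cells (adjusted p = 0.621).

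ABCF2 read 5132, 5343 and 5285 in GFP with Cyss, 5246, 5173 and 5620 in GFP without Cyss, 5099, 4943 and 4975 in NRF2 with Cyss and 5478, 5814 and 5910 in NRF2 without Cyss. In NRF2 cells its ranges did not overlap (log2FC 0.20, SE 0.0439, adjusted p = 0.00453, under the fold threshold), and in GFP cells they did (0.03, adjusted p = 0.754). ABCE1 read 6379, 5334 and 5488 in GFP with Cyss, 5283, 5510 and 5853 in GFP without Cyss, 5447, 5358 and 5069 in NRF2 with Cyss and 5753, 6254 and 5715 in NRF2 without Cyss. Its log2FC in NRF2 cells, 0.16 (SE 0.0508, adjusted p = 0.0334), was also under the fold threshold. ABCF3 stayed between 2613 and 2851 in the 12 libraries and was not called.

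The interaction test has no fold threshold and calls a gene on the adjusted p alone. It called 5 members with a higher response in NRF2 cells, ABCA1, ABCA13, ABCC9, ABCF1 and ABCF2, and ABCB6 with a lower one, against 8.97% and 6.13% of 17674 genes. The differences of ABCF1 (0.14, SE 0.0531, adjusted p = 0.0952) and ABCF2 (0.17, SE 0.0595, adjusted p = 0.0821) were called in 3 and 4 of the 12 fits that left out 1 library, and both were lost (adjusted p = 0.282 and 0.197) when libraries were scaled by their totals only. In GENCODE 44, a same-strand readthrough gene shares 37.1% of the exon bases of ABCF2, and a pseudogene copy, ABCF2P1, has an entry of its own, so its level is uncertain. The difference of ABCE1, 0.20 (SE 0.0854, adjusted p = 0.142), was not called. It was called in 3 of the 12 fits that left out 1 library, at 0.25 (adjusted p = 0.0783) without GFP without Cyss replicate 3, 0.25 (adjusted p = 0.0726) without GFP with Cyss replicate 2 and 0.24 (adjusted p = 0.067) without NRF2 without Cyss replicate 3. With no filter on low counts ABCE1 was called (adjusted p = 0.0472), and ABCF1 (0.252) and ABCF2 (0.149) were not. Of the 8 translation partners listed, ETF1 and GSPT1, the release factors with which ABCE1 works, were called higher in this test (0.22, adjusted p = 0.0237, and 0.19, adjusted p = 0.0298). NRF2 against GFP cells gave -0.14 and -0.11 for these with Cyss (adjusted p = 0.0451 and 0.0931). Without Cyss it gave 0.06 and 0.07 (adjusted p = 0.369 and 0.307). EIF2S2, a subunit of the initiation factor eIF2, was called higher on deprivation in GFP (0.55, adjusted p = 1.39e-06) and in NRF2 cells (0.41, adjusted p = 0.000119). No other partner was called on deprivation, against 1.57% and 6.81% of all genes called higher. On the adjusted p alone, 5 of the 8 were higher in NRF2 cells, beside 2633 of 17266 genes. Under the fold threshold these were ETF1 (0.26, adjusted p = 0.00058), EIF2S3 (0.23, adjusted p = 0.00254), GSPT1 (0.15, adjusted p = 0.0175) and HBS1L (0.12, adjusted p = 0.081). The responses of EIF2S2 differed by -0.15 (adjusted p = 0.224).

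**Figure D5:**
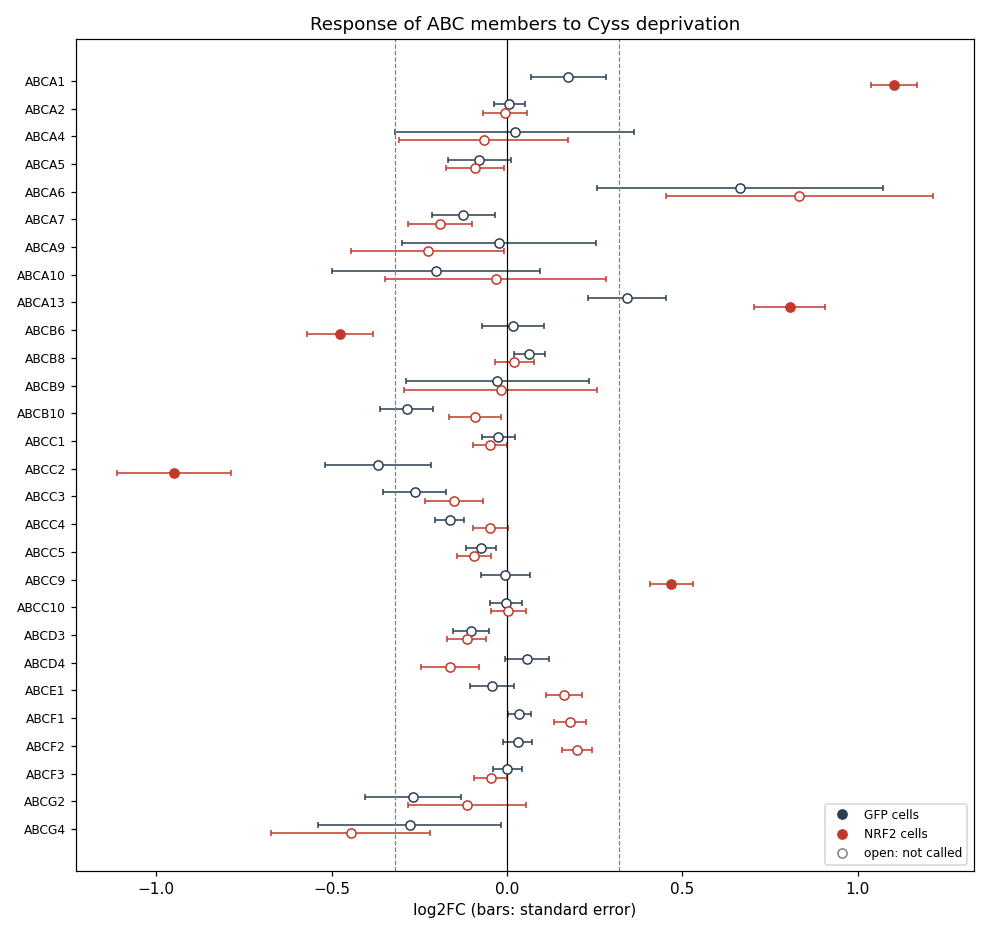
log2FC of 28 members on Cyss deprivation in GFP cells (dark) and NRF2 cells (red), with bars of 1 standard error. Filled points were called, and dashed lines mark 0.32 in either direction; no GFP point is filled, and ABCA1 (1.10), ABCA13 (0.81), ABCC9 (0.47), ABCB6 (-0.48) and ABCC2 (-0.95) are filled for NRF2 cells.

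In subfamily G, ABCG2, a drug and urate exporter of the plasma membrane, read 82.8, 89.1 and 74.7 in GFP with Cyss, 60.4, 76.1 and 69.1 in GFP without Cyss, 89.8, 71.6 and 105 in NRF2 with Cyss and 94.9, 79.8 and 70.7 in NRF2 without Cyss. The groups overlapped, and log2FC from -0.27 to 0.26 did not pass the test. ABCG4, a sterol exporter best known from brain, ran from 17.7 to 45.7 and was not called.

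The enzymes that make or handle glutathione conjugates, 21 in the list, gave a side view of the exporters. In GFP cells 0 of the 18 tested were called on deprivation, against 1.57% of all genes called higher and 0.533% lower. Of the 18, 3 had an unadjusted p under 0.05. MGST1 was lower without overlap and passed on the adjusted p (log2FC -0.19, adjusted p = 0.0111), under the fold threshold. On the adjusted p alone, 490 of 17452 genes were lower. In NRF2 cells, against 5.14% of all genes called lower and 6.81% higher, 4 were called lower, GSTA1 (-0.66, adjusted p = 0.0766), GSTA4 (-0.38, adjusted p = 0.000243), GSTM2 (-1.08, adjusted p = 0.021) and MGST1 (-0.40, adjusted p = 6.81e-05), and GSTO2 higher (0.62, adjusted p = 0.0604). GSTM2 reached the minimum there only with Cyss (15.7 normalized counts, against 7.35 without), so the filter set its sign. GSTA1 (25.7 with Cyss and 16.2 without) and GSTO2 (28.4 and 43.3) were low as well. On the adjusted p alone, 11 of the 18 were lower and 2 higher, a count given without its share over all genes. The median log2FC of the 18 was -0.25. The interaction test called 7 of the 18 with a lower response in NRF2 cells and 0 with a higher one, against 6.13% and 8.97% of all genes, and 10 had an unadjusted p under 0.05. In NRF2 against GFP cells with Cyss, 0 of 18 were called, against 1.36% of all genes called higher and 0.201% lower. There 7 had an unadjusted p under 0.05 and 14 of 18 were positive. Without Cyss, 12 of 17 tested were negative, with a median log2FC of -0.11, and 0 were called lower, though 4 passed on the adjusted p alone with a smaller fold. GSTO2 was called higher (0.68, adjusted p = 0.0397), against 5.98% of all genes called higher and 4.09% lower. Among family genes with other symbols, TAP1, a peptide transporter of antigen presentation, was called lower on deprivation in NRF2 cells (-0.35, adjusted p = 0.000791).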

How the data were processed

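RNA of 12 libraries of Hs 578T cells was sequenced single end from TruSeq RNA v2 libraries. The authors mapped reads to hg19 with TopHat2 2.1.0 and deposited raw read counts per gene symbol from HTSeq 0.11.2, counted on exons without strand. The annotation version is not given in the sources used here. Unassigned reads (15.9 to 17.1% of each file) were left out, and 523 genes named as rRNA were removed, as in the study's methods. In R 4.3.3, each comparison took the 6 libraries concerned, kept genes with a mean of at least 10 TMM-normalized counts in either group, and applied the quasi-likelihood test of edgeR 4.0.16 with Benjamini-Hochberg adjustment. Calls needed an adjusted p under 0.1 and a log2FC over 0.32 in size. The interaction was tested over all 12 libraries on adjusted p alone. The share of all genes with an unadjusted p under 0.05 was not counted, so counts of members below it have no background. SE is the log2FC divided by the root of the F statistic. Alternatives included DESeq2 1.42.0. The tests were checked on simulated data with a single dispersion and changes set only in well-counted genes. That check does not cover members with few reads or changes under the fold threshold. Positions and exon lengths came from GENCODE 44 on GRCh37, which is not the counting annotation, and promoters from RefSeq. Of 46 members, 11 had no promoter in the table. Figures were drawn with matplotlib 3.10.9.

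The members and the lists were chosen with earlier results of these data known. Values by library are given for members called in any test, for the exporters of conjugates, and for a fixed list of others (among them ABCA1, ABCB1, ABCB6, ABCE1, ABCF1, ABCG1 and ABCG2). Values of further members, of ABCA2 and ABCB10 among them, were chosen after they were seen. The values of 2 members are not reported here, and the figures of all members draw the other 28. No 2 libraries of a group agreed within sampling noise (chi-square per degree of freedom 2.11 to 11.7).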

Additional observations from a re-analysis of the deposited data

Results flagged for a closer look

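For 6 members the response to Cyss deprivation differed between NRF2 and GFP cells by the interaction term of edgeR's quasi-likelihood test, with adjusted p under 0.1. The difference was positive for ABCA1 (0.93 on the log2 scale, adjusted p = 0.000671), ABCC9 (0.47, adjusted p = 0.00725), ABCA13 (0.46, adjusted p = 0.0616), ABCF2 (0.17, adjusted p = 0.0821) and ABCF1 (0.14, adjusted p = 0.0952), and negative for ABCB6 (-0.49, adjusted p = 0.0165). Those of ABCA1, ABCC9 and ABCB6 were called whichever of the 12 libraries was left out. The others were called in 5 (ABCA13), 4 (ABCF2) and 3 (ABCF1) of the 12 such fits.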

How the results depend on the processing

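Counts of called members moved by more than 1.5 times in these cases. For GFP without against with Cyss, the count called higher went from 0 to 1 (ABCA13) with no filter on low counts, with all 12 libraries in one fit and with the replicate block, and the count called lower from 0 to 2 with no fold threshold and to 0 to 1 when each library was left out (ABCB10, without GFP with Cyss replicate 2 or 3). With no fold threshold, NRF2 without against with Cyss had 6 higher, NRF2 against GFP with Cyss 5 higher, and without Cyss 9 higher and 2 lower. By DESeq2's Wald test, NRF2 against GFP with Cyss had 1 higher (ABCC3), where 8 members, ABCA9 and ABCC2 among them, had no adjusted p. For the interaction, the count of higher members was 3 with library size only, 2 at adjusted p under 0.05 and 2 to 7 when each library was left out, and that of lower members was 2, ABCC2 joining ABCB6, with library size only, with no filter and with the replicate block, and 1 to 2 when each library was left out. Leaving out each library gave 0 higher for GFP without against with Cyss, 3 to 4 higher and 2 lower for NRF2 without against with Cyss, and, for NRF2 against GFP, 2 to 3 higher with Cyss and 4 to 5 without. No called value changed sign. Of all values of the named members, called or not, 6 of 569 changed sign under an alternative and 42 of 612 when a library was left out. With all 12 libraries in one fit, ABCC2 in NRF2 against GFP with Cyss had an adjusted p of 0.102.

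Neither the labels nor the methods say that replicate numbers pair the libraries. Deviations of same-numbered libraries correlated at -0.0311 to 0.137 over the 4 comparisons, which cannot exclude a pairing. The block stands only for a shared number, and it changed no other count by more than 1.5 times.

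Scaling by library size only moved the median log2FC of all genes to -0.071 for NRF2 without against with Cyss and turned the split of called genes from 1176 higher and 887 lower to 936 and 1397. For NRF2 against GFP without Cyss it went from 1034 and 708 to 876 and 1001, and for the interaction from 1585 and 1084 to 1124 and 1981. With 3 libraries a group and 12 to 36 reads behind ABCA9, small changes of low members were not detectable at this depth.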
